A study of Mus musculus with 6 samples.

Results

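The 10 genes described here encode subunits of the Polycomb repressive complexes. Ezh2, Ezh1, Suz12, Eed and Jarid2 belong to Polycomb repressive complex 2 (PRC2), and Bmi1, Ring1, Rnf2, Cbx2 and Cbx7 belong to Polycomb repressive complex 1 (PRC1). The members were chosen by symbol, from knowledge of the complexes and with earlier results of these data known. All 10 were found among the 37991 gene identifiers of the count tables. All 10 also passed the filter on low counts, as did 16683 identifiers in all, and their counts per library lay between 619 and 28808.

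The cells were pre-B cells, sorted from bone marrow of C57BL/6 mice at 3 stages. The labels give 1 gate for all stages (high B220, low IgM and IgD), whereas the methods of the study give that gate for wild-type and premalignant pro-B and pre-B cells and sort malignant cells as B220-positive and negative for IgM and IgD, so that a difference in gate and the malignant stage cannot be told apart. Wild-type mice lacked the Eμ-Myc transgene, in which the immunoglobulin heavy-chain enhancer drives Myc in the B lineage, and were 4 to 6 weeks old. Premalignant mice were heterozygous for Eμ-Myc, 4 to 6 weeks old and without lymphoma, whereas malignant Eμ-Myc heterozygotes were taken with spontaneous lymphoma at 10 to 20 weeks, so that age and malignancy cannot be told apart. Each stage had 2 biological replicates, and the 6 libraries of polyadenylated RNA held 30031100 to 53453055 counts.

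PRC2 places methyl groups on lysine 27 of histone H3 (H3K27), and PRC1 places ubiquitin on histone H2A. Ezh2 and Ezh1 are the alternative catalytic subunits of PRC2, Suz12 and Eed hold the complex together, and Jarid2 is an accessory subunit that helps it bind chromatin. In PRC1, Ring1 and Rnf2 are the alternative ubiquitin ligases, Bmi1 is a ring-finger partner of the ligase, and the Cbx proteins bind methylated H3K27. In B-cell progenitors, Ezh2 is known for its role in rearrangement of the heavy-chain locus, and Bmi1 is known as a repressor of Cdkn2a and a partner of Myc in lymphoma.

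The promoters of 4 members are shown because Cbx7 and Eed were the members called in both comparisons with wild type, and because Bmi1 and Suz12 held the motifs searched for. Each is the 250 bases before the RefSeq start of the gene on GRCm38.p6, in the sense of transcription. They are Cbx7 (chr15:79932647-79932896, minus strand), Eed (chr7:89980977-89981226, minus strand), Bmi1 (chr2:18676768-18677017, plus strand) and Suz12 (chr11:79992856-79993105, plus strand). Capitals mark a match to the E-box CACGTG, the core site of Myc and Max, or to the E2F motif GCGGGAA on either strand.
Cbx7: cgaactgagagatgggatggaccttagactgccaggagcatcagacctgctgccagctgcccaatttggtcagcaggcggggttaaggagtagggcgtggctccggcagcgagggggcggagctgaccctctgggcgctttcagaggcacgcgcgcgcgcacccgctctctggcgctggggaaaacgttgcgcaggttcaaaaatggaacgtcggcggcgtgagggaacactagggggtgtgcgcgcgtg
Eed: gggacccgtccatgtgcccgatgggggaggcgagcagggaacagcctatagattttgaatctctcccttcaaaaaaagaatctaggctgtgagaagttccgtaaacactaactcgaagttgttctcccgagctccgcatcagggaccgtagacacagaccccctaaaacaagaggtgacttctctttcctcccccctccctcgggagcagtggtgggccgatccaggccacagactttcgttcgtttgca
Bmi1: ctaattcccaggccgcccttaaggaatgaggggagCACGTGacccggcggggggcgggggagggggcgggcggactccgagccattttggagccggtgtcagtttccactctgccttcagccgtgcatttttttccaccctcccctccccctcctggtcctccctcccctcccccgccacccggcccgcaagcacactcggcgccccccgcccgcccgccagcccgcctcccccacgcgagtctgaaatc
Suz12: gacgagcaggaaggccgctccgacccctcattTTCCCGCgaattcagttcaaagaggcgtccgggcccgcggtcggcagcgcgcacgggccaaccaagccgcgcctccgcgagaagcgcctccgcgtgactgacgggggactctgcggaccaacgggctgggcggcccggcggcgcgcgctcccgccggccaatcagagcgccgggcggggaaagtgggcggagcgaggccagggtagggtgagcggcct
Of the 9 members with such a window, only Bmi1 held the E-box, whose first base lies 215 bases before the start, and only Suz12 held the E2F motif, on the opposite strand and 218 bases before the start. The E-box was in 6.02% and the E2F motif in 3.82% of 32851 promoter windows of this length. The share of G and C was 64.8% in Cbx7, 54.4% in Eed, 70.4% in Bmi1 and 73.6% in Suz12, against a median of 52.4% over all windows. The motifs do not overlap each other, and a match describes these letters and no binding.

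The check of the transgene went with the labels. Wild-type libraries held 33.7 and 41.4 CPM of Myc, premalignant ones 1164 and 1155 CPM, and malignant ones 1731 and 1577 CPM. CPM is the count scaled to the TMM-normalized library size of edgeR, and 3 counts corresponded to 0.0525 to 0.107 CPM. Malignant replicate 1 stood apart from the other libraries. It held 1.71 CPM of Xist, the RNA of the inactive X chromosome, against 1907 to 2648 CPM in the other 5 libraries, and 126 CPM of the Y-linked Ddx3y, which was at most 0.113 CPM elsewhere. The study used female wild-type and premalignant mice and malignant mice of both sexes. By these genes malignant replicate 1 came from a male, so that the malignant stage mixes the sexes and the other stages do not. Sex and the other traits of this library cannot be told apart. The median difference between the replicates over all genes was 0.26 for wild type, 0.15 for premalignant cells and 0.41 for malignant cells on the log2 scale. Markers of other cells were higher in the wild-type libraries. The summed level of 7 myeloid markers was 770.9 to 1695 CPM in wild type, 230.9 to 246.8 CPM in premalignant and 55.1 to 111.5 CPM in malignant libraries. The 6 erythroid markers summed to 297.6 to 1162, 69.8 to 157.5 and 59.1 to 67.3 CPM, the 5 T-cell markers to 37.0 to 65.3, 13.9 to 31.0 and 1.21 to 9.89 CPM, and the 3 NK-cell markers to 35.3 to 92.7, 1.48 to 4.55 and 0.523 to 1.43 CPM. The 3 plasma-cell markers summed to 146.4 to 167.8, 67.0 to 80.3 and 48.6 to 85.4 CPM, and the 3 stromal markers to 0.736 to 3.90, 0.209 to 0.693 and 0.188 to 0.860 CPM. No marker of these lists was at 0 in all 6 libraries. The 10 B-lineage markers summed to 6848 to 7683 CPM in wild type, to 3380 to 3388 CPM in premalignant and to 2778 to 3166 CPM in malignant libraries. Their median log2 fold change against wild type was -1.20 in premalignant and -1.44 in malignant cells. By the rule given below, 9 of the 10 were called lower in each comparison, where 39.3% and 49.2% of all genes were called in either direction. Cd79a, a signalling chain of the B-cell receptor, was at 731.6 to 1479 CPM in every library. Vpreb1 and Igll1, the surrogate light chain of the pre-B receptor, were at 0.146 and 0.167 CPM in malignant replicate 1. The part of these differences in the results for the Polycomb genes was not tested. In sorted bulk RNA, fewer cells of a type and less RNA per cell cannot be told apart.

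Transcripts of the PRC2 core were the most abundant of the members. Levels are compared between genes in RPKM, the CPM divided by the exon length in kilobases. In wild-type cells, the order was Ezh2 at 71.0 ± 14.7 RPKM (SD, n = 2), Suz12 at 55.2 ± 13.7, Eed at 36.5 ± 6.59, Cbx7 at 30.9 ± 7.92 and Rnf2 at 30.6 ± 5.96 RPKM. Jarid2, Bmi1, Ring1, Ezh1 and Cbx2 followed between 11.9 and 6.93 RPKM. The ranges of the replicates overlapped for neighbours in this order except for Suz12 and Eed, for Rnf2 and Jarid2 and for Ring1 and Ezh1. In premalignant cells Suz12 came before Ezh2, at 80.8 ± 4.30 against 70.2 ± 1.28 RPKM (SD, n = 2), and these ranges did not overlap. Cbx7, the fourth in wild type, lay seventh there at 11.0 ± 0.848 RPKM, in overlap with Cbx2 before it and Jarid2 after it. In malignant cells the first 6 were Suz12, Eed, Ezh2, Rnf2, Bmi1 and Cbx7, from 67.8 to 14.4 RPKM, and the ranges of each neighbouring pair among them overlapped. Ezh1 was the lowest in premalignant and malignant cells, at 5.79 ± 0.620 and 5.68 ± 0.141 RPKM (SD, n = 2).

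**Figure D1:**
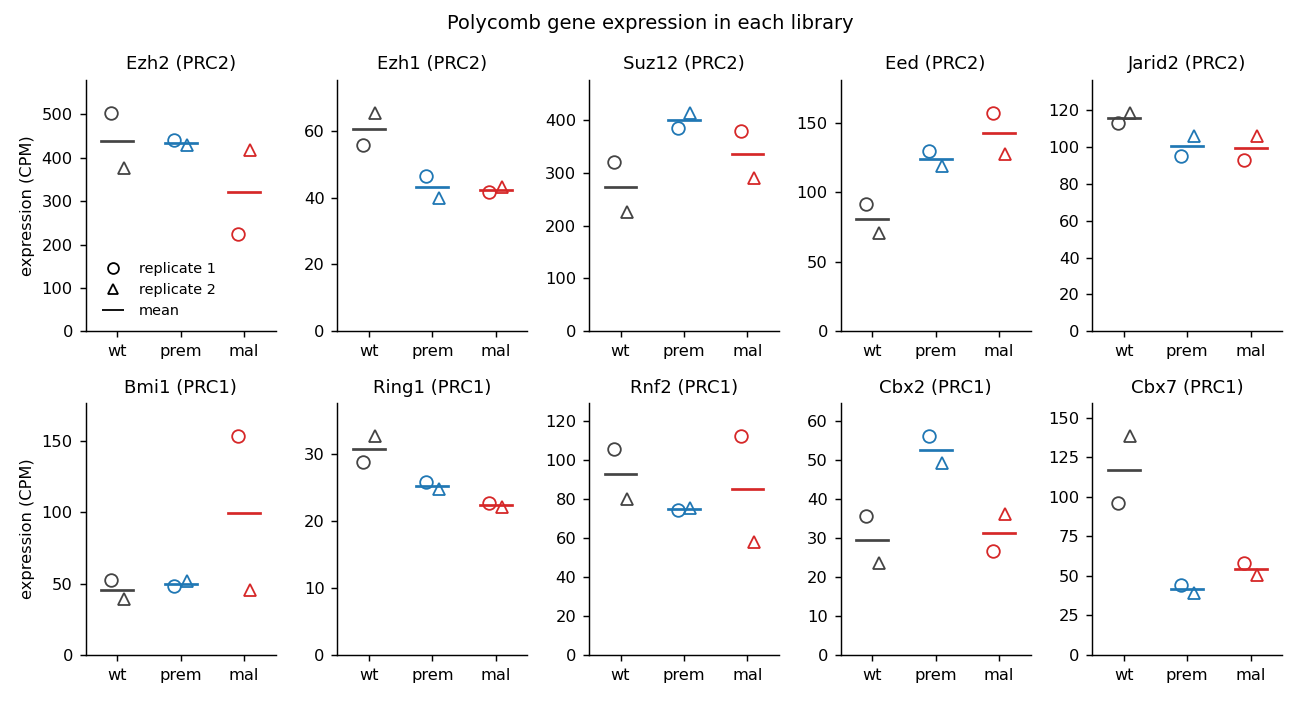
Expression of the 10 Polycomb genes in CPM (vertical axis, from 0) in libraries of the wild-type (wt), the premalignant (prem) and the malignant (mal) stage, with circles for replicate 1, triangles for replicate 2 and bars for the mean of 2 libraries. Both wild-type libraries lie above the other 4 for Cbx7 and below them for Eed, and malignant replicate 1 lies apart for Bmi1 at 153.3 CPM.

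The comparison of premalignant with wild-type cells sets mice with and without the transgene side by side before lymphoma is present. The libraries of these stages also differed in the cell markers given above, whose part was not tested. Of the 10 members, Eed and Cbx2 were called higher and Cbx7 was called lower in premalignant cells. A call needed a log2 fold change of 0.5 or more in size and a Benjamini-Hochberg adjusted p (FDR) of 0.1 or less in edgeR's quasi-likelihood test over all 16683 genes, and every adjusted p given is from that test unless DESeq2 is named. These 3 of 10 members compare with 39.3% of all genes called by the same rule, 3169 higher and 3394 lower. In this fit the share of members called was therefore no larger than the background. The median log2 fold change of the members was -0.11, beside -0.08 over all genes, and the median size of the change was 0.40, beside 0.66 over all genes. DESeq2 called 4 members, beside 6597 of 26485 genes. Those 26485 genes were not filtered on low counts, as the 16683 of edgeR were. The share of members therefore cannot be set against the share of genes in that fit. Without wild type replicate 2 or either premalignant library, the calls of Eed and Cbx2 were lost and that of Cbx7 was kept. A fit without 1 library leaves its stage with a single library, which is then assumed to vary like the other stages.

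Between malignant and wild-type cells, Eed was called higher and Ezh1 and Cbx7 were called lower, again 3 of 10, where 49.2% of all genes were called, 4153 higher and 4059 lower. The median log2 fold change was -0.17 for the members and -0.02 over all genes, and its median size was 0.46 and 0.77. Without malignant replicate 2, the malignant stage is replicate 1 alone. The log2 fold change against wild type was then 1.77 for Bmi1 and -0.95 for Ezh2, in place of 1.12 and -0.46. Between malignant and premalignant cells, none of the 10 was called by edgeR. In edgeR, 1 of them (Cbx2) had an unadjusted p under 0.05, beside 3313 of 16683 genes. DESeq2 called Cbx2 alone of the members, beside 2186 of 26485 genes. In that comparison edgeR called 6.18% of all genes, 623 higher and 408 lower, or 487 and 492 with upper-quartile normalization. Without malignant replicate 2, edgeR called 3 members, of which Bmi1 was higher and Cbx2 and Ezh2 were lower, but that fit also called 3805 of 18065 genes. The comparisons with wild type share the wild-type libraries, so their calls are not independent. With 2 libraries per stage, an exact permutation test of a single gene cannot give a two-sided p below 0.333, and so every call draws on a spread that edgeR pools over genes.

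**Figure D2:**
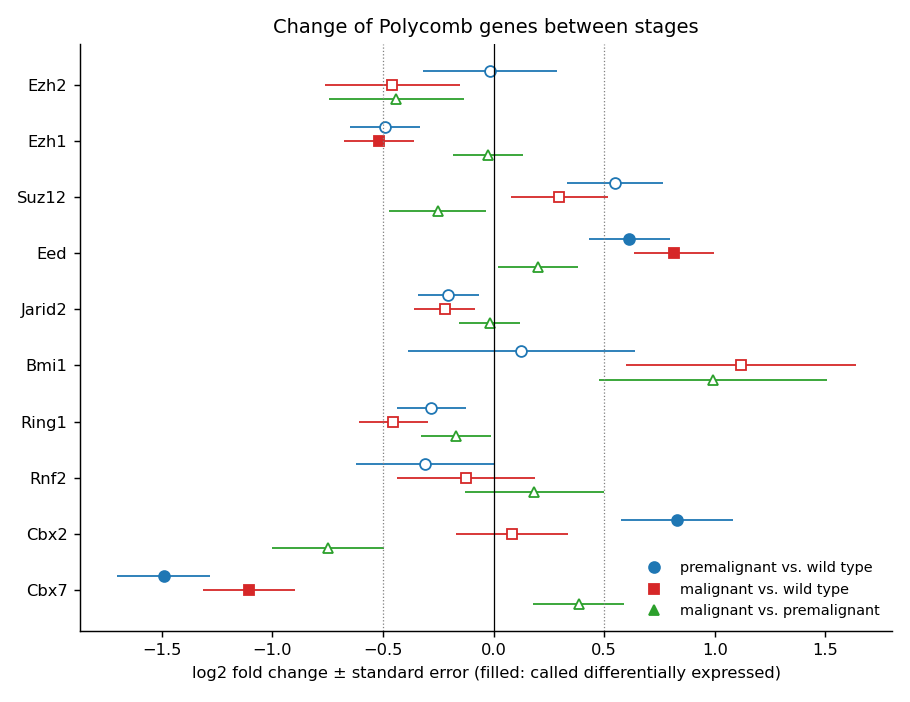
Log2 fold change (horizontal axis) with its standard error from edgeR for each of the 10 Polycomb genes in 3 comparisons, with filled symbols for genes called differentially expressed and dotted lines at the minimum fold change of 0.5. Cbx7 is the only member below -1 in a comparison with wild type, and Eed lies to the right in both, at 0.61 and 0.81.

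Ezh2 (chromosome 6, 47480273 to 47545340, NCBIM37), the main methyltransferase of dividing cells, was at 504.5 and 375.4 CPM in wild type, at 440.5 and 429.3 CPM in premalignant and at 224.0 and 417.2 CPM in malignant libraries. The wild-type and premalignant ranges overlapped, and malignant replicate 1 was the lowest of the 6 libraries. Its log2 fold change in malignant vs. wild-type cells was -0.46 (SE, the standard error, 0.30, adjusted p = 0.271), and that in premalignant vs. wild-type cells was -0.02 (SE 0.30, adjusted p = 0.972). The malignant libraries differed 1.86-fold. Without malignant replicate 2, malignant cells were called lower than wild type at -0.95 (adjusted p = 0.00940) and lower than premalignant cells at -0.99 (adjusted p = 0.0225), but the malignant stage is then only the library that stood apart, with its spread taken from the other stages.

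Ezh1 (chromosome 11, 101052429 to 101087777), the paralogue of Ezh2 that is known from resting cells, was at 55.6 and 65.4 CPM in wild type, at 46.3 and 39.8 CPM in premalignant and at 41.5 and 43.0 CPM in malignant libraries. Both wild-type libraries lay above the other 4. It was 1.43-fold lower in malignant cells than in wild type (log2 fold change -0.52, SE 0.16, adjusted p = 0.0393). In premalignant cells the log2 fold change was -0.49 (SE 0.16, adjusted p = 0.0589), under the minimum of 0.5, and it was called at -0.58 with upper-quartile normalization, at -0.55 with at least 10 counts in every library and at -0.60 without wild type replicate 1. The call in malignant cells was lost without wild type replicate 2 (log2 fold change -0.40, adjusted p = 0.183) and without malignant replicate 1 (log2 fold change -0.48, adjusted p = 0.0637).

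Eed (chromosome 7, 97103166 to 97129493), which binds trimethylated H3K27 and stimulates the methyltransferase, was at 91.4 and 70.7 CPM in wild type, at 129.7 and 118.6 CPM in premalignant and at 157.4 and 127.9 CPM in malignant libraries. All 4 Eμ-Myc libraries lay above both wild-type libraries, whereas the premalignant and malignant ranges overlapped. Expression was above that in wild type by 1.53-fold in premalignant (log2 fold change 0.61, SE 0.18, adjusted p = 0.0466) and by 1.76-fold in malignant cells (log2 fold change 0.81, SE 0.18, adjusted p = 0.0140). The call in malignant cells was made in each of the 12 alternative fits. That in premalignant cells was lost without wild type replicate 2 (0.44, adjusted p = 0.202), without premalignant replicate 1 (0.56, adjusted p = 0.234) and without premalignant replicate 2 (0.69, adjusted p = 0.179).

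Suz12 (chromosome 11, 79806608 to 79847625), which is needed for a stable PRC2, was at 320.7 and 225.1 CPM in wild type, at 384.4 and 414.4 CPM in premalignant and at 379.8 and 290.9 CPM in malignant libraries. The premalignant libraries were the highest of the 6, and the wild-type and malignant ranges overlapped. In premalignant cells the log2 fold change was 0.55 (SE 0.22, adjusted p = 0.105). It was called with DESeq2, with no filter on low counts, with only the 2 stages in the fit, and also at 0.83 without wild type replicate 1 (adjusted p = 0.0696), at 0.56 without malignant replicate 1 (adjusted p = 0.0415) and at 0.61 without malignant replicate 2 (adjusted p = 0.0335). In malignant cells it was 0.30 (SE 0.22, adjusted p = 0.318). An antisense gene, Gm16706, shares 178 bp of the exons of Suz12, but held 630 counts over all libraries against 86488 of Suz12, and the library kit does not mark strand. For Ezh2, the antisense gene Gm17629 shares 174 bp and held 461 counts against 101810.

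Jarid2 (chromosome 13, 44824843 to 45017012) varied least among the PRC2 members. It was at 112.9 and 118.7 CPM in wild type, at 95.2 and 106.0 CPM in premalignant and at 92.9 and 106.0 CPM in malignant libraries. Both wild-type libraries lay above the other 4, with log2 fold changes of -0.20 (SE 0.14, adjusted p = 0.296) and -0.22 (SE 0.14, adjusted p = 0.239) in premalignant and malignant cells.

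Among the members called, Cbx7 had the largest change in both comparisons with wild type. Cbx7 (chromosome 15, 79746237 to 79801549), a chromodomain protein that recruits PRC1 to methylated H3K27, was at 95.96 and 138.4 CPM in wild type, at 44.0 and 39.4 CPM in premalignant and at 58.5 and 50.4 CPM in malignant libraries. The 3 ranges did not overlap, with premalignant cells lowest. Expression was below that in wild type by 2.81-fold in premalignant (log2 fold change -1.49, SE 0.21, adjusted p = 0.00535) and by 2.15-fold in malignant cells (log2 fold change -1.11, SE 0.21, adjusted p = 0.00796). Both calls were made in each of the 12 alternative fits, with log2 fold changes from -1.73 to -1.20 and from -1.34 to -0.82. The wild-type libraries differed 1.44-fold, and the higher one was replicate 2, which also held the higher summed level of myeloid markers, 1695 against 770.9 CPM, and the lower summed level of NK-cell markers, 35.3 against 92.7 CPM. Between malignant and premalignant cells the log2 fold change was 0.38 (SE 0.21, adjusted p = 0.369).

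Cbx2 (chromosome 11, 118884276 to 118892584), another chromodomain subunit, peaked in premalignant cells. It was at 35.6 and 23.5 CPM in wild type, at 56.0 and 49.1 CPM in premalignant and at 26.6 and 36.0 CPM in malignant libraries. The premalignant libraries lay above the other 4, and the wild-type and malignant ranges overlapped. Expression was 1.78-fold higher in premalignant than in wild-type cells (log2 fold change 0.83, SE 0.25, adjusted p = 0.0513), and in malignant vs. premalignant cells the log2 fold change was -0.75 (SE 0.25, adjusted p = 0.183). The first call was lost without wild type replicate 2 (0.56, adjusted p = 0.225), premalignant replicate 1 (0.74, adjusted p = 0.235) or premalignant replicate 2 (0.93, adjusted p = 0.172). The second difference was called with DESeq2 (-0.77, DESeq2 adjusted p = 0.0678), without the filter on low counts (-0.75, adjusted p = 0.0182) and without malignant replicate 2 (-1.01, adjusted p = 0.0515).

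Bmi1 (chromosome 2, 18598645 to 18608256) was high in a single malignant library. It was at 52.6 and 39.0 CPM in wild type, at 48.4 and 51.6 CPM in premalignant and at 153.3 and 45.5 CPM in malignant libraries. Malignant replicate 1 was 3.37-fold above replicate 2, a difference that 8.75% of all genes exceeded, and the ranges of the stages overlapped. The log2 fold change in malignant vs. wild-type cells was 1.12 (SE 0.52, adjusted p = 0.129). It was -0.004 without malignant replicate 1 and 1.77 without malignant replicate 2 (adjusted p = 0.000606, with the spread of the other stages standing in for that of the lone malignant library), and DESeq2 called it at 1.09 (DESeq2 adjusted p = 0.0644). Against premalignant cells it was 0.99 (SE 0.52, adjusted p = 0.351), and it was called with no filter on low counts and, at 1.58 (adjusted p = 0.00323), without malignant replicate 2. An elevated Bmi1 is thus a value of 1 library here.

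Rnf2 (chromosome 1, 153316536 to 153347953), the main H2A ubiquitin ligase, was at 105.5 and 80.0 CPM in wild type, at 74.3 and 75.5 CPM in premalignant and at 112.1 and 58.0 CPM in malignant libraries. The malignant libraries were the highest and the lowest of the 6 and differed 1.93-fold. The log2 fold change in malignant cells was -0.12 (SE 0.31, adjusted p = 0.780), and without malignant replicate 1 it was -0.67 and called (adjusted p = 0.0314). Ring1 (chromosome 17, 34157737 to 34161625), its paralogue, was at 28.8 and 32.7 CPM in wild type, at 25.8 and 24.8 CPM in premalignant and at 22.7 and 22.2 CPM in malignant libraries. None of the 3 ranges overlapped. Ring1 differed by -0.45 on the log2 scale in malignant cells (SE 0.16, adjusted p = 0.0585), under the minimum of 0.5, and it was called lower with upper-quartile normalization (-0.62), with at least 10 counts in every library (-0.54) and without wild type replicate 1 (-0.54).

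Paralogues that take the same place in a complex were set against each other as ratios of RPKM within each library, which do not depend on the scaling between libraries. These are descriptions of 2 libraries per stage. Ezh2 was 10.9 and 6.89 times Ezh1 in wild type, 11.4 and 12.9 times in premalignant and 6.48 and 11.7 times in malignant libraries. Ezh2 was therefore the more abundant transcript in all 6 libraries, and the wild-type and malignant ranges overlapped. Cbx7 was 3.03 and 6.62 times Cbx2 in wild-type libraries and 2.47 and 1.57 times in malignant libraries, whereas Cbx2 was 1.13 and 1.11 times Cbx7 in the premalignant libraries. On the log2 scale, the ratio of Cbx2 to Cbx7 was -2.16 ± 0.797 for wild type, 0.16 ± 0.023 for premalignant cells and -0.98 ± 0.460 for malignant cells (SD, n = 2), and the 3 ranges did not overlap. Rnf2 was 2.62 to 5.28 times Ring1 over the 6 libraries, with the highest ratio in malignant replicate 1.

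**Figure D3:**
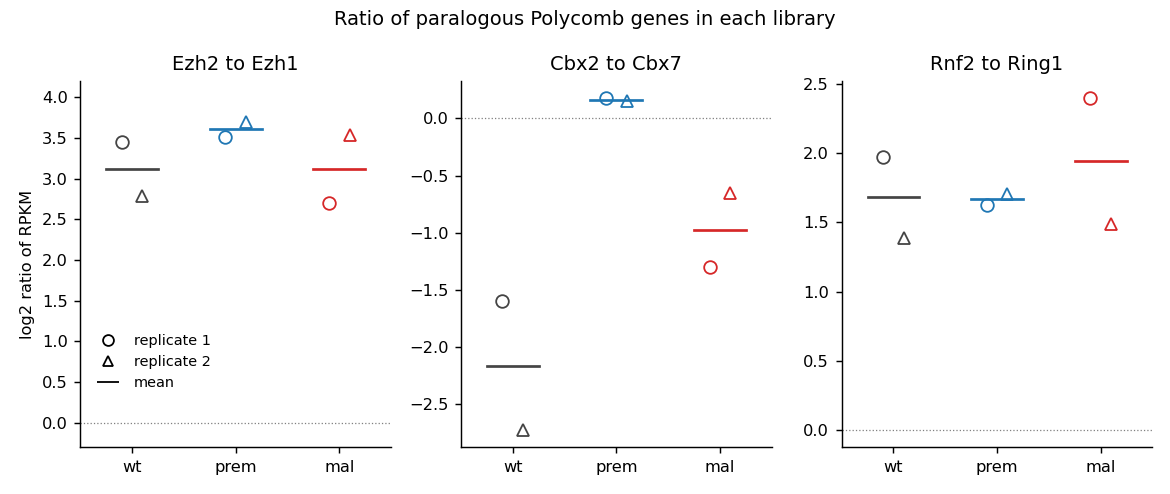
Log2 ratio of RPKM (vertical axis) of Ezh2 to Ezh1, Cbx2 to Cbx7 and Rnf2 to Ring1 in libraries of the wild-type (wt), the premalignant (prem) and the malignant (mal) stage, with circles for replicate 1, triangles for replicate 2, bars for the mean of 2 libraries and a dotted line at equal levels. The Cbx2 to Cbx7 ratio lies at 0.16 on average in premalignant cells and at -2.16 in wild-type cells.

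Most of the further PRC2 subunits were called in both comparisons with wild type. Of 9 listed partners, 8 were tested, and 5 were called higher and 1 lower in premalignant cells, and 4 higher and 2 lower in malignant cells, vs. wild type. Over all genes 39.3% and 49.2% were called in these comparisons. The median log2 fold changes were 0.69 and 0.50, beside -0.08 and -0.02 over all genes. Epop (E130012A19Rik in the annotation), an accessory subunit that links PRC2 to elongin, was at 4.06 and 4.24 CPM in wild type, at 27.2 and 31.5 CPM in premalignant and at 64.8 and 52.2 CPM in malignant libraries. The 3 ranges of Epop did not overlap, with malignant cells highest. Its change on the log2 scale was 2.82 (SE 0.19, adjusted p = 0.00147) in premalignant and 3.82 (SE 0.20, adjusted p = 0.000526) in malignant cells, and each of the 12 alternative fits called both. Rbbp7, a histone-binding core subunit, rose by 1.18 (SE 0.20, adjusted p = 0.00827) in premalignant and by 1.17 (SE 0.20, adjusted p = 0.00522) in malignant cells, with all 4 Eμ-Myc libraries at 390.9 to 417.3 CPM against 211.0 and 147.3 CPM in wild type. Aebp2, a DNA-binding accessory subunit, rose by 0.79 (adjusted p = 0.0156) in premalignant and by 1.18 (SE 0.16, adjusted p = 0.00289) in malignant cells, but its premalignant call was lost without premalignant replicate 1 (adjusted p = 0.111) or replicate 2 (adjusted p = 0.122).

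Phf1, which reads methylated H3K36 and belongs to the Polycomb-like proteins with Mtf2 and Phf19, moved the other way. It was at 32.7 and 45.4 CPM in wild type, at 18.3 and 14.2 CPM in premalignant and at 11.2 and 14.2 CPM in malignant libraries. Phf1 fell by 1.27 on the log2 scale (SE 0.25, adjusted p = 0.0142) in premalignant and by 1.62 (SE 0.25, adjusted p = 0.00436) in malignant cells, and the premalignant call was lost without wild type replicate 2 (-1.01, adjusted p = 0.103) or premalignant replicate 2 (-1.08, adjusted p = 0.135). The other partner called lower in malignant vs. wild-type cells was Mtf2, chosen here after its values were seen. Over the 12 alternative fits, the log2 fold change of Mtf2 in that comparison was -0.868 to -0.618. Between malignant and premalignant cells, Epop was called higher (1.00, adjusted p = 0.0498) and Mtf2 was called lower (-0.53, adjusted p = 0.0955). Both of these calls were lost with only the 2 stages in the fit (adjusted p = 0.112 and 0.151) and without either wild-type or either premalignant library. The count of 5 partners called higher in premalignant cells was 2 without premalignant replicate 1, 2 without premalignant replicate 2 and 3 without wild type replicate 2, since the calls of Rbbp4 and Phf19 were among those lost.

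All 23 listed PRC1 subunits were tested. In premalignant cells 4 were called higher and 3 lower, and in malignant cells 7 were called higher and 7 lower, or 5 and 11 with upper-quartile normalization, which shifted the median change of all genes by -0.17 (log2). The share of all genes called was 39.3% and 49.2%. The 7 of 23 in premalignant cells lay below that share, and the 14 of 23 in malignant cells lay above it. The medians were -0.10 and -0.23. Pcgf6, the ring-finger subunit of a variant PRC1 that also holds Mga and L3mbtl2, was at 13.4 and 13.2 CPM in wild type, at 46.1 and 45.8 CPM in premalignant and at 52.0 and 49.5 CPM in malignant libraries. All 4 Eμ-Myc libraries lay above wild type, with log2 fold changes of 1.79 (SE 0.14, adjusted p = 0.00179) and 1.93 (SE 0.14, adjusted p = 0.000633), and each of the 12 alternative fits called both. Pcgf2, the close paralogue of Bmi1, was at 2.26 and 2.35 CPM in wild type, at 4.61 and 4.85 CPM in premalignant and at 9.20 and 6.13 CPM in malignant libraries. It was called higher in malignant cells (1.73, SE 0.33, adjusted p = 0.00813), with the 3 ranges apart. In premalignant cells it was called at 1.04 (adjusted p = 0.0547), a call lost when either wild-type or either premalignant library was left out (adjusted p = 0.184 to 0.242).

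Auts2, which occurs in an activating variant of PRC1, was at 2.70 and 2.46 CPM in wild type, at 2.97 and 2.29 CPM in premalignant and at 0.0836 and 0.573 CPM in malignant libraries. Malignant cells were called lower than wild type (-3.05, SE 0.80, adjusted p = 0.0235), at -4.88 without malignant replicate 2. Scml4, a sex-comb-on-midleg homologue, was at 27.3 and 32.7 CPM in wild type, at 9.70 and 8.73 CPM in premalignant and at 56.4 and 148.5 CPM in malignant libraries. It was therefore lowest in premalignant and highest in malignant cells, with no overlap. Relative to wild type it was called lower in premalignant cells (-1.70, SE 0.43, adjusted p = 0.0301) and higher in malignant cells (1.77, SE 0.43, adjusted p = 0.0186), and malignant cells were also called higher than premalignant cells (3.47, SE 0.46, adjusted p = 0.0254). Its size in malignant vs. wild-type cells was 0.94 without malignant replicate 2, and the call was lost without wild type replicate 1 (adjusted p = 0.116). The premalignant call was lost without wild type replicate 2 or either premalignant library. The third call was lost without wild type replicate 1 or either premalignant library, and with only the 2 stages in the fit (adjusted p = 0.1034). The other PRC1 gene called between malignant and premalignant cells was Scml2, which was under 1 CPM in every library.

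The count of PRC1 calls depended on single libraries. The count over all genes also fell in each of the fits named next. Whether the fall for PRC1 was larger than that over all genes was not tested. Of the 7 higher and 7 lower calls in malignant vs. wild-type cells, 3 and 3 were made without wild type replicate 1 and 4 and 4 without wild type replicate 2. Of the 4 higher and 3 lower calls in premalignant cells, 2 and 0 were made without premalignant replicate 1, 1 and 0 without premalignant replicate 2, 2 and 2 without wild type replicate 1 and 2 and 0 without wild type replicate 2.

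Of 7 listed enzymes that oppose the complexes, 6 were tested. Kdm6a and its Y-linked form Uty belong to the family of H3K27 demethylases, and Bap1 with its Asxl partners removes ubiquitin from H2A. In premalignant cells, Asxl1 alone was called (higher, 0.55, adjusted p = 0.0224), and in malignant cells Uty, Bap1 and Asxl1 were called higher and Kdm6a lower. These 1 of 6 and 4 of 6 stand beside 39.3% and 49.2% of all genes. Kdm6a was at 149.9 and 144.6 CPM in wild type, at 127.4 and 116.9 CPM in premalignant and at 62.9 and 102.7 CPM in malignant libraries. The lower value belongs to malignant replicate 1, the library without Xist, which also held 28.9 CPM of Uty against 0.572 to 0.962 CPM elsewhere. Without it, the log2 fold change of Kdm6a was -0.51 (adjusted p = 0.0266) in place of -0.83 (adjusted p = 0.0306), and that of Uty was -0.04 in place of 4.25 (adjusted p = 0.0585). The call of Kdm6a was lost without wild type replicate 1 (adjusted p = 0.119) or replicate 2 (adjusted p = 0.110), and that of Uty without wild type replicate 1 (adjusted p = 0.248) or replicate 2 (adjusted p = 0.211). In malignant cells Bap1 rose by 0.56 (SE 0.12, adjusted p = 0.0133) and Asxl1 by 0.55 (SE 0.13, adjusted p = 0.0156) on the log2 scale. With upper-quartile normalization these were 0.39 and 0.38, under the minimum of 0.5, and Asxl1 was at 0.46 in premalignant cells. The Asxl1 call was also lost without wild type replicate 2 in malignant cells (0.47, adjusted p = 0.0779) and, in premalignant cells, without wild type replicate 2 (0.48, adjusted p = 0.110), premalignant replicate 1 (adjusted p = 0.181) or premalignant replicate 2 (adjusted p = 0.155).

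**Figure D4:**
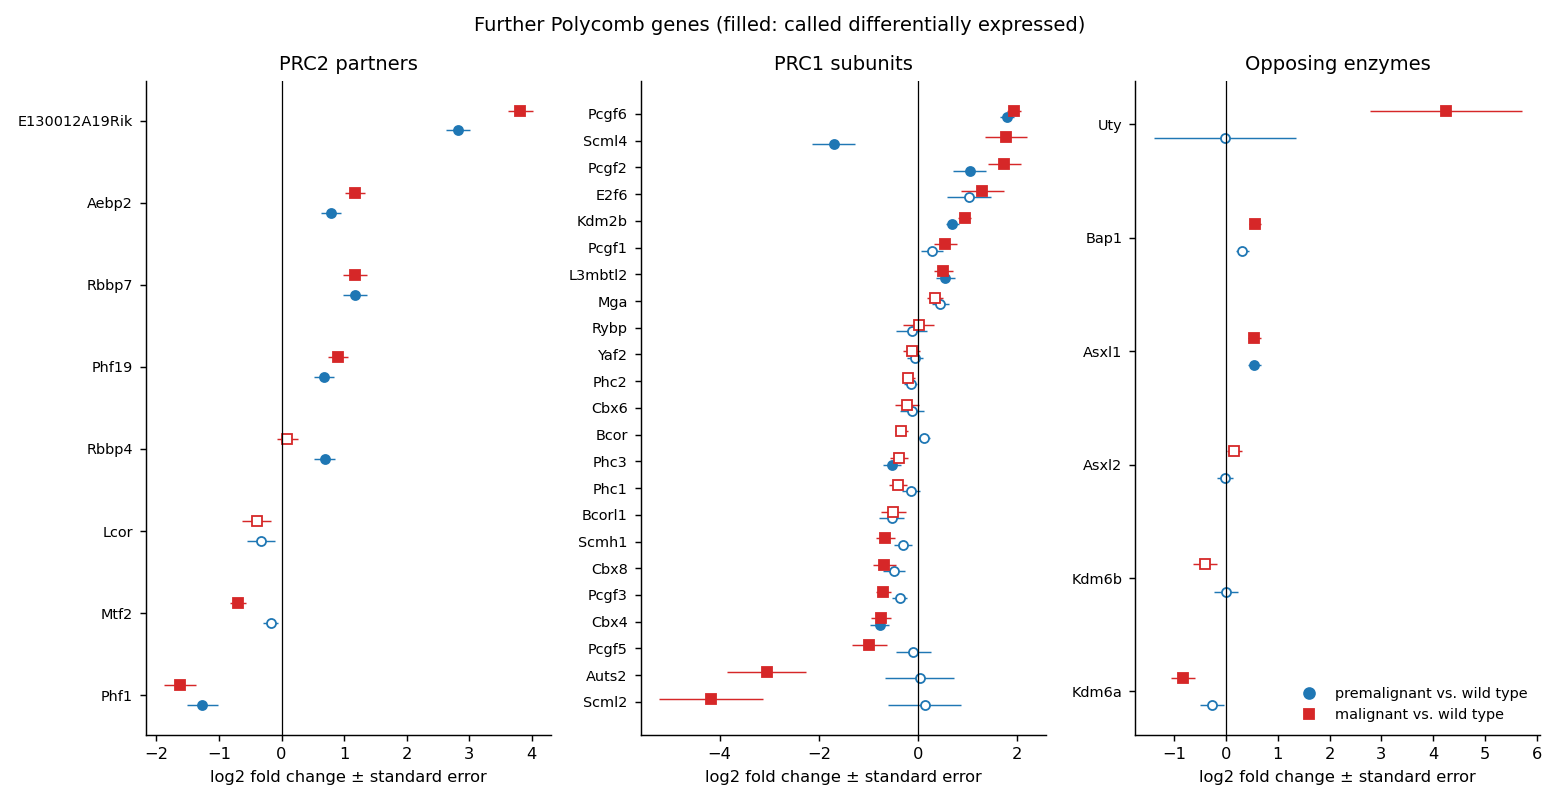
Log2 fold change (horizontal axis) with its standard error from edgeR for the tested PRC2 partners, PRC1 subunits and opposing enzymes in premalignant (circles) and malignant (squares) vs. wild-type cells, with filled symbols for genes called differentially expressed. Epop (E130012A19Rik) at 3.82 and Pcgf6 at 1.93 lie far to the right in malignant cells, and Phf1 lies to the left in both comparisons. In malignant cells Uty, high in malignant replicate 1 alone, lies further right than Epop, and Auts2 and Scml2 lie further left than Phf1.

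The Hox clusters and Cdkn2a are textbook targets of Polycomb repression, and their transcripts were set beside the members. Of 39 Hox genes listed, 17 had no count in any library, 10 passed the filter and 5 reached a mean of 1 CPM in a stage. Among the 10 tested, 4 were called lower in premalignant cells and 5 lower and 1 higher in malignant cells, vs. wild type. These shares, 4 of 10 and 6 of 10, were near the 39.3% and 49.2% of all genes called. Hoxa5 was at 1.91 and 1.07 CPM in wild type, at 0.419 and 0.211 CPM in premalignant and at 0.0209 and 0.0717 CPM in malignant libraries. In malignant cells Hoxa5 had changed by -5.09 on the log2 scale (SE 0.77, adjusted p = 0.00393), at a level of 1 to 2 counts in each malignant library. The ratio of summed counts over library sizes was 40.2-fold lower, with an exact 95% counting interval of 13.5 to 197-fold. Hoxa9 was at 3.06 and 1.36 CPM in wild type, at 0.610 and 0.271 CPM in premalignant and at 0.0627 and 0.251 CPM in malignant libraries (malignant vs. wild type -3.91, SE 0.84, adjusted p = 0.0121). Hoxa6 was at 1.70 and 1.33 CPM in wild type, at 0.362 and 0.151 CPM in premalignant and at 0 and 0.0717 CPM in malignant libraries, and was called lower in malignant cells (-5.61, SE 1.02, adjusted p = 0.00715). With 2 malignant counts in all, the ratio for Hoxa6 was 59.0-fold lower (counting interval 16.0 to 492-fold). All 3 genes were highest in wild type and lowest in malignant libraries, with no overlap of the ranges. Hoxa7 was at 4.24 and 3.28 CPM in wild type, at 1.92 and 0.994 CPM in premalignant and at 0 and 0.609 CPM in malignant libraries. The call of Hoxa7 in malignant cells (-3.75, adjusted p = 0.0620) was lost without either wild-type or either premalignant library. It was also lost with only the 2 stages in the fit (adjusted p = 0.1096). No fold without malignant replicate 2 is given for Hoxa6 and Hoxa7, since replicate 1 held no count of either. Hoxa3, named after its values were seen, had no count in the malignant libraries and was at least 9.10-fold lower than in wild type, taking 3 counts per library as the floor.

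The Hox gene called higher was Hoxb13, with no count in the wild-type and premalignant libraries and 0.627 and 0.717 CPM in the malignant ones, which is at least 9.78-fold higher than in wild type. None of the 4 Hox calls in premalignant cells was made without wild type replicate 1 or either premalignant library, and 1 was made without wild type replicate 2. The summed myeloid, erythroid, T-cell and NK-cell marker levels given above fell between wild-type and malignant libraries together with the Hoxa genes, and their part in this result was not tested.

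Cdkn2a was at 0.193 and 0.0566 CPM in wild type, at 4.13 and 5.60 CPM in premalignant and at 0.293 and 8.82 CPM in malignant libraries. The malignant libraries were apart for this gene, and they were also apart for Bmi1, at 153.3 CPM in replicate 1 and 45.5 CPM in replicate 2. With 2 libraries, a relation between these genes cannot be tested. Cdkn2a rose by 5.17 (SE 1.56, adjusted p = 0.0492) in premalignant and by 5.06 (SE 1.55, adjusted p = 0.0403) in malignant cells on the log2 scale. In malignant cells it was 1.13 (adjusted p = 0.206) without malignant replicate 2, and the call was also lost without wild type replicate 1 (adjusted p = 0.143) or replicate 2 (adjusted p = 0.202). In premalignant cells the call was lost without wild type replicate 1 (adjusted p = 0.165) or replicate 2 (adjusted p = 0.242) and without premalignant replicate 1 (adjusted p = 0.132) or replicate 2 (adjusted p = 0.155). Cdkn2b stayed under 1 CPM in all libraries.

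**Figure D5:**
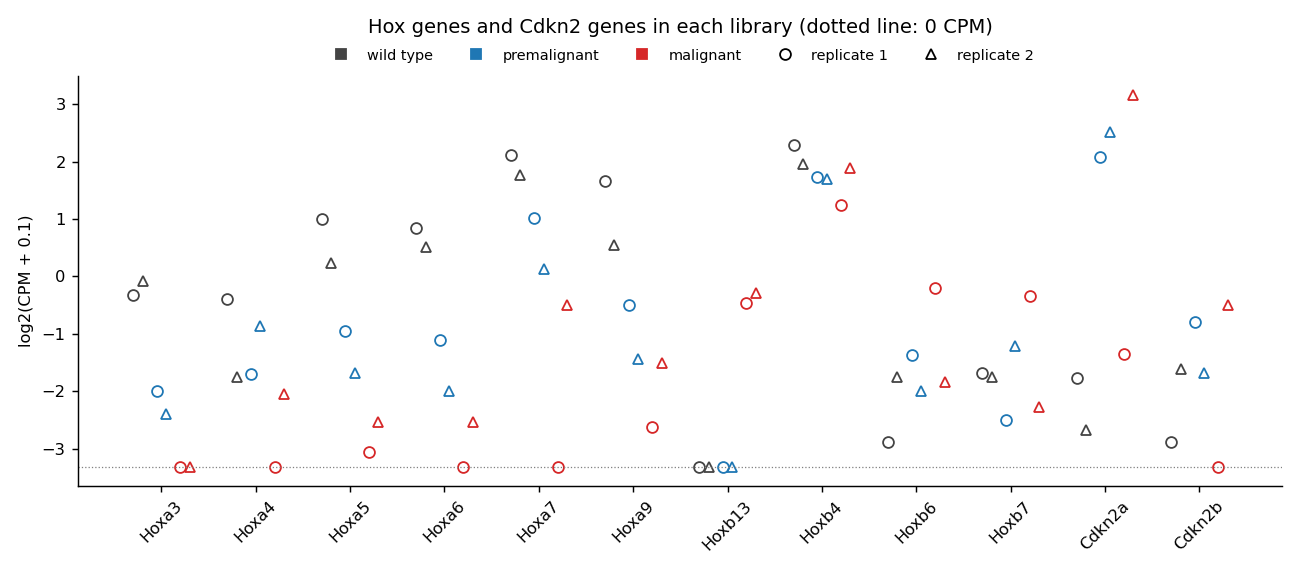
Expression of the tested Hox genes, Cdkn2a and Cdkn2b as log2(CPM + 0.1) (vertical axis) in each library, colored by stage, with circles for replicate 1, triangles for replicate 2 and a dotted line at 0 CPM. Hoxa3 has no count in either malignant library, Hoxb13 has counts in malignant libraries only, and Cdkn2a differs between the malignant libraries, at 0.293 and 8.82 CPM.

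Proliferation genes were set beside the members because Ezh2 is known to be induced in dividing cells. The 10 cell-cycle markers summed to 5263 and 3516 CPM in wild type, to 7069 and 7564 CPM in premalignant and to 4718 and 6112 CPM in malignant libraries. Of these 10 genes, 7 were called higher in premalignant and 4 in malignant cells, or 6 and 2 with upper-quartile normalization, where 39.3% and 49.2% of all genes were called in either direction. Ezh2 and the summed markers were both higher in wild type replicate 1 than in replicate 2 and higher in malignant replicate 2 than in replicate 1. In premalignant cells the order differed. There Ezh2 was higher in replicate 1, at 440.5 against 429.3 CPM, and the summed markers were higher in replicate 2. The premalignant libraries had the highest summed markers, while the level of Ezh2 there, 434.9 ± 7.96 CPM (SD, n = 2), lay within the wild-type range. The count of 7 was 10 without wild type replicate 1, 2 without wild type replicate 2 and 1 without either premalignant library, and that of 4 was 7 without wild type replicate 1 and 2 without wild type replicate 2.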

How the data were processed

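Raw counts per Ensembl gene were deposited by the authors for 6 libraries. Per the methods of the study, 50-bp single-end reads of a TruSeq v2 library (HiSeq2500) were aligned with TopHat and counted with HTSeq, whose options are not given in the sources used here. The submitters' processing notes name CASAVA 1.8.2, Bowtie, HTSeq, DESeq and mm9. The deposited DEseq tables hold the authors' stage means, fold changes and p-values and were not used. Counts were fitted with edgeR 4.0.16 (R 4.3.3; glmQLFit and glmQLFTest, TMM, filterByExpr), with all 6 libraries in 1 fit on stage, and calls were made at an FDR of 0.1 and an absolute log2 fold change of 0.5. The standard error is the log2 fold change divided by the root of F. Alternatives included DESeq2 1.42.0, other normalization and filters, a replicate block, fits of the stages compared alone, other thresholds and leaving out each library. On data simulated from these libraries, edgeR's calls against malignant cells held a larger share of unchanged genes than the FDR set. The simulation changed only a small set of genes, and in malignant libraries alone, whereas 49.2% of all genes were called in malignant vs. wild-type cells. The share of unchanged genes depends on how many genes change, so it cannot be carried over to these data. Symbols (37205 of 37991 identifiers), exon lengths and coordinates are from GENCODE vM1 on NCBIM37, and promoters are from RefSeq on GRCm38.p6. The members and lists were chosen with earlier results of these data known. All members were named, and from each further list the called genes with the 4 largest changes in malignant vs. wild-type cells and 1 CPM or more on average in the higher stage. The check of sex-linked genes was added after the data were seen. Limits of 3 counts cover counting error only, and TMM takes most genes as unchanged.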

Additional observations from a re-analysis of the deposited data

How the results depend on the processing

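Of the 12 alternative fits, each called Cbx7 in both comparisons with wild type and Eed in malignant cells. The number of members called in premalignant vs. wild-type cells, 3, was 1 with a minimum log2 change of 1 and lay between 1 and 5 when 1 library was left out. In malignant vs. wild-type cells it was 1 with that threshold, where the 8212 calls over all genes became 5917. It also changed in some of the fits that left out 1 library. In malignant vs. premalignant cells, where it was 0, it was 1 with DESeq2, 2 with no filter on low counts and between 0 and 3 without 1 library. Over all genes, 6563 calls in premalignant vs. wild-type cells became 4282 with a minimum log2 change of 1 and lay between 2094 and 8455 without 1 library. The 1031 calls in malignant vs. premalignant cells became 2186 with DESeq2, 2810 with no filter on low counts, 258 with only the 2 stages in the fit and 407 at an FDR of 0.05, and lay between 0 and 3805 without 1 library. With CPM in place of RPKM, the log2 ratio in premalignant cells was 3.34 for Ezh2 to Ezh1, 0.33 for Cbx2 to Cbx7 and 1.57 for Rnf2 to Ring1, since exon length is then left out. The log2 fold change of Uty in malignant vs. wild-type cells, 4.25, ranged from -0.044 without malignant replicate 1 to 5.245 without malignant replicate 2. Except as stated, the cause of these differences was not tested.

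The replicate numbers are shared by the stages in the labels, but 2 pairs cannot show a pairing. The deviations from the stage mean had a correlation across genes, between libraries of the same number, of 0.51 for wild type with premalignant, 0.19 for wild type with malignant and 0.26 for premalignant with malignant. With the replicate block, 6575, 8224 and 940 genes were called between premalignant and wild-type, malignant and wild-type, and malignant and premalignant cells, and 4, 3 and 0 members. The added member was Suz12 (0.58, adjusted p = 0.0776). Named calls lost with the block were Uty (3.28, adjusted p = 0.140) in malignant vs. wild-type cells and Mtf2 (-0.53, adjusted p = 0.126), Scml2 (-4.34, adjusted p = 0.102) and Hoxa3 (adjusted p = 0.149) in malignant vs. premalignant cells. Replicate 1 libraries were the deeper ones in every stage, so depth followed the number and not the stage.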

Other observations

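The genes whose profile over the 6 libraries was most like that of Ezh2 were Gpsm2, Wwp1, Mex3b, 2810432D09Rik and Top1, out of 8880 genes with a mean of at least 10 CPM. The root mean square difference of their log2 CPM from that of Ezh2, after each gene was centred on its mean, was 0.078 for Gpsm2 and 0.125 for Top1, a DNA topoisomerase. Gpsm2 was at 51.9 and 34.5 CPM in wild type, at 43.7 and 44.9 CPM in premalignant and at 23.8 and 39.3 CPM in malignant libraries, so that malignant replicate 1 was the lowest for this gene too. For Cbx7 the nearest genes were Rnf215, Hivep1, Atxn7, Snx33 and Furin, with differences from 0.045 to 0.144. Rnf215 was at 15.8 and 22.3 CPM in wild type, at 6.78 and 6.57 CPM in premalignant and at 9.55 and 7.74 CPM in malignant libraries. Profiles over 6 libraries share depth and cell makeup, and no test was made of these likenesses.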
